A study of Mus musculus with 9 samples.

Results

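The EGF receptor system of the lung was followed through 10 genes, selected by symbol from the 18984 genes listed for each library. They were 6 ligands (Areg, Hbegf, Ereg, Btc, Tgfa and Egf), 3 receptors (Egfr, Erbb2 and Erbb3) and the feedback inhibitor Errfi1. Lungs came from C57BL/6 mice 24 hours after an intratracheal dose of normal saline (control), of Aspergillus fumigatus conidia, the resting spores, or of hyphal fragments, the filamentous growth form. Each group had 3 libraries. The sources used here give no age, sex, dose or fungal strain, and no label states that each library is a different animal, so the p-values measure the spread between these libraries, which may be technical.

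Ligands of this family are made as membrane-anchored precursors, cut from the cell surface by metalloproteases such as Adam17 with the help of the iRhom proteins Rhbdf1 and Rhbdf2. They bind Egfr, which pairs with itself or with Erbb2, a receptor without a ligand of its own, or Erbb3, a neuregulin receptor with a weak kinase. The signal runs through RAS and ERK to early response genes, and inhibitors made in response, Errfi1 (MIG6) among them, bind the receptor or block the kinases. In the lung the pathway is known for epithelial growth and repair after injury.

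Summed FPKM per library ranged from 492540 to 561250. Markers of alveolar type 2 cells (14815 to 29951 FPKM summed over 8 genes), club and goblet cells and endothelium were present in every library. Expression was given as FPKM, fragments per transcript length and library total. Differences are between group means of log2(FPKM + 1), tested with limma, and a gene was called at a Benjamini-Hochberg adjusted p under 0.05 over the 13761 genes that reached 1 FPKM in 3 or more libraries. The median difference of these genes lay at −0.07 for conidia against control, −0.37 for hyphae against control and −0.29 for hyphae against conidia. A second scale, on which each library was divided by its median-of-ratios factor, moves these medians to 0.01, 0.00 and −0.01, and its values are given beside the deposited ones as "rescaled". The 3 comparisons share libraries, so their values are set side by side and are not independent of one another. In whole lung, fewer cells of a type and less RNA per cell cannot be told apart.

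The promoters of Areg and Errfi1 are shown because both genes were higher in hyphae than in conidia libraries, and those of Egfr and Erbb2 because these receptors moved in opposite directions. Of the annotated starts of Errfi1 only the second is printed, and the first held 0 matches to the 7 motifs below. Each run covers the 250 bases before the annotated start (RefSeq, GRCm38.p6), 5′ to 3′ on the strand of the gene. Capitals mark matches, on either strand, to any of 7 motifs: the cAMP response element (CRE, TGACGTCA), AP-1 (TGANTCA), the CArG box, the GC box (GGGCGG), the TATA box (TATAAA), NF-kB and the glucocorticoid response element.
Areg, chr5:91139349-91139598, plus strand: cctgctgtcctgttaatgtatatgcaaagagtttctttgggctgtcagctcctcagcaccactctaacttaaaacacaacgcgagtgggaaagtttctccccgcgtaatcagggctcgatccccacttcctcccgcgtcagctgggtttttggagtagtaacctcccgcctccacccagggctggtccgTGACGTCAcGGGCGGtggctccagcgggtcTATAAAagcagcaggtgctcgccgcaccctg
Errfi1, second annotated start, chr4:150854820-150855069, plus strand: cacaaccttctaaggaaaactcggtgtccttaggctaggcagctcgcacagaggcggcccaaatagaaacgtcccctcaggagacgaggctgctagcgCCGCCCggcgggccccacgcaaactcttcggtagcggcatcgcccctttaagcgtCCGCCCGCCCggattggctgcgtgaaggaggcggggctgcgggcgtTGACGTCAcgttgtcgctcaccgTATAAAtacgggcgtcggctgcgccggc
Egfr, chr11:16751953-16752202, plus strand: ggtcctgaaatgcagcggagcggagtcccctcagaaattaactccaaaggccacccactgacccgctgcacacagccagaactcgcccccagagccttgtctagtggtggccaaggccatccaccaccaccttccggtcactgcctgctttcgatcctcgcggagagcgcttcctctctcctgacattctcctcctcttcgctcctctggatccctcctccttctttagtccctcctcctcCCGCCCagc
Erbb2, chr11:98412234-98412483, plus strand: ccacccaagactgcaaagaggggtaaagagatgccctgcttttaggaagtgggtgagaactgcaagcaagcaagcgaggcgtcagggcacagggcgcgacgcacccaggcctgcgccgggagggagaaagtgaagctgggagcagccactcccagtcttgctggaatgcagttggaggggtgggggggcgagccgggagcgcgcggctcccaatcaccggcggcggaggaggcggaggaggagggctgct

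The table at hand held 9 start sites for 7 of the 10 genes, and none for Hbegf, Ereg and Erbb3. A full CRE stood 54 to 61 bases before the start of Areg and 44 to 51 bases before the second start of Errfi1. These were the only 2 of the 9 windows with a CRE, which was found in 1.55% of all 32851 promoter windows of the same length. Both windows also held a TATA box, at 26 to 31 bases before the start in Areg and 23 to 28 in Errfi1, against 12.4% of all windows. The GC box, found in 32.7% of all windows, was in 4 of the 9, with 1 match in Areg and Egfr, 2 in Tgfa and 3 in Errfi1, of which 2 overlap. AP-1 (6.75% of all windows), the CArG box (1.47%), NF-kB (3.9%) and the glucocorticoid response element (0.387%) matched in 0 of the 9. These matches describe letters only and say nothing of factor binding.

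In control lungs Errfi1 was the most abundant of the 10 transcripts and Ereg the least. Mean FPKM, a scale adjusted for transcript length, was 68.9 for Errfi1, 19.1 for Hbegf, 13.1 for Erbb2, 8.94 for Erbb3, 7.42 for Areg, 6.69 for Tgfa, 3.39 for Egfr, 3.11 for Btc, 0.36 for Egf and 0.0933 for Ereg. The ranges of Hbegf and Erbb2, of Erbb3 and Areg, of Areg and Tgfa, and of Egfr and Btc overlapped, and the other neighbours in this order did not. In hyphae libraries the order was Errfi1, Hbegf, Areg, Egfr, Erbb3, Erbb2, Tgfa, Ereg, Btc and Egf. There the ranges of Egfr and Erbb3, of Erbb3 and Erbb2 and of Erbb2 and Tgfa overlapped.

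**Figure D1:**
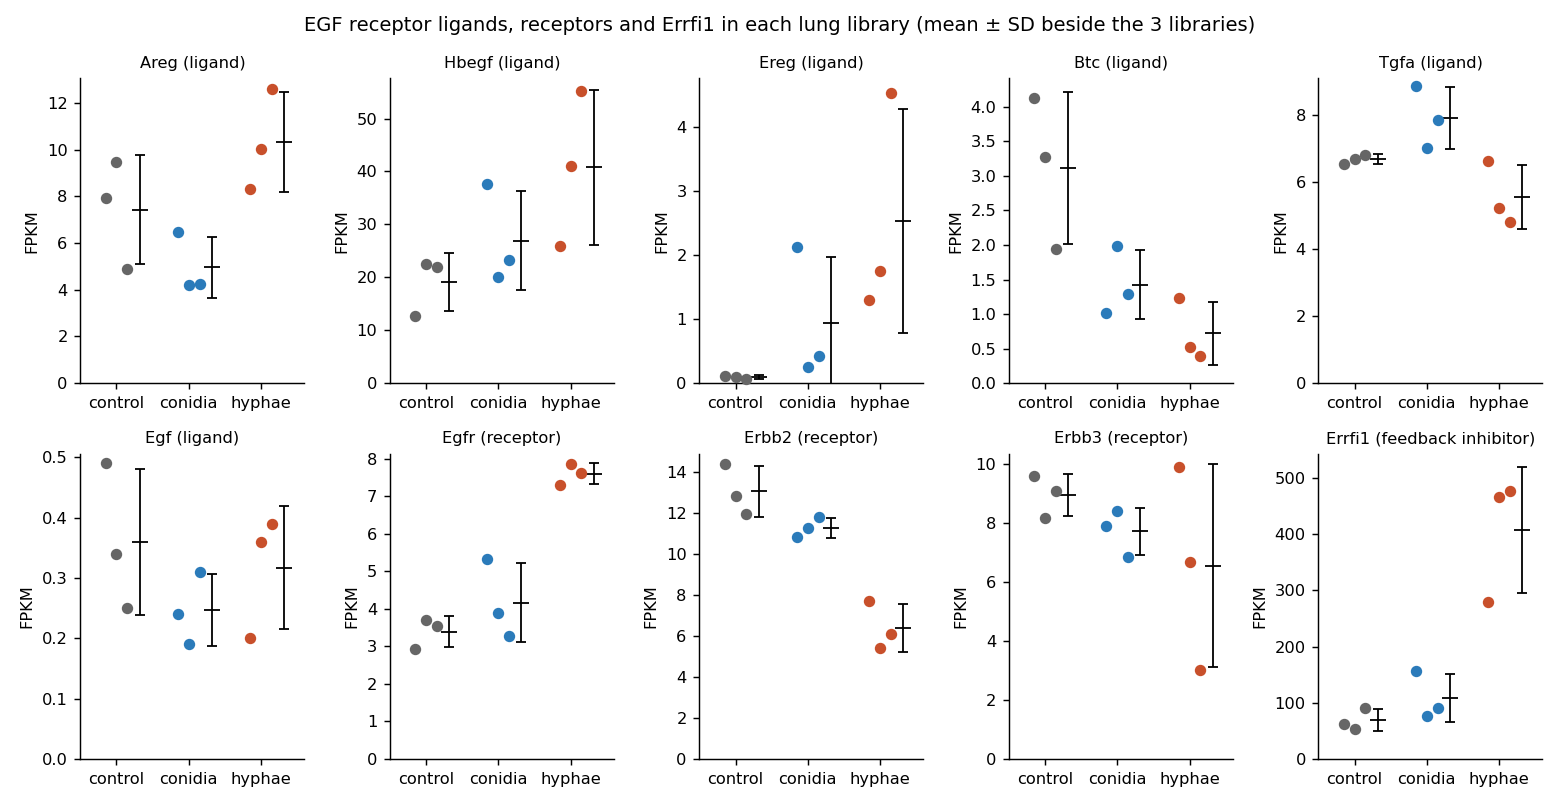
FPKM (linear axis from 0) of the 10 genes in the 3 libraries of each group, with the mean ± SD beside the points; the lower end of the Ereg bar for conidia is clipped at 0. Errfi1 in hyphae lies between 279 and 478 FPKM, above all other libraries, and Erbb2 in hyphae lies between 5.43 and 7.70 FPKM, below all others.

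Conidia were compared with saline to ask what inhaled spores change after a day. None of the 9 genes tested passed in limma (percent of all genes called: 0.690), and 1, Btc, had an unadjusted p under 0.05 (21.1% of all genes). Egf, the tenth gene, did not reach the filter. No setting tried, rescaling (0.342% of all genes called) and left-out libraries included, called any of the 9.

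Hbegf (Entrez 15200), a heparin-binding ligand, read 12.8, 22.5 and 21.9 FPKM in control replicates 1, 2 and 3, and 37.6, 20.1 and 23.2 in conidia replicates 1, 2 and 3. Conidia replicate 1 was above every control and the other two lay within or just above the control range, and the log2 difference was 0.47 (95% interval −0.28 to 1.22). Ereg (Entrez 13874), epiregulin, read 0.12, 0.10 and 0.06 FPKM in control and 2.13, 0.26 and 0.43 after conidia, again with replicate 1 highest. The Ereg groups did not overlap, and the log2 difference was 0.70 (−0.19 to 1.59, adjusted p = 0.323). Groups did not overlap for 3 of the 9 genes, Ereg, Tgfa and Erbb2, against 29.8% of all genes tested, and the Erbb2 groups overlapped after rescaling.

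Areg (Entrez 11839), amphiregulin, read 7.91, 9.47 and 4.88 FPKM in control and 6.47, 4.20 and 4.23 after conidia. The difference was −0.48 (−1.02 to 0.07), and the groups overlapped through conidia replicate 1 and control replicate 3. Btc (Entrez 12223), betacellulin, read 4.12, 3.28 and 1.94 FPKM in control and 1.01, 1.98 and 1.29 after conidia. Its difference of −0.74 (−1.32 to −0.17) had an adjusted p of 0.157, with conidia replicate 2 just above the lowest control. Tgfa (Entrez 21802), transforming growth factor alpha, read 6.54, 6.71 and 6.83 in control and 8.89, 7.03 and 7.87 after conidia, all 3 above the narrow control range, with a difference of 0.21 (−0.08 to 0.50).

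Among the receptors, Egfr (Entrez 13649) read 2.92, 3.70 and 3.54 FPKM in control and 5.34, 3.88 and 3.28 after conidia. Erbb2 (Entrez 13866) read 14.4, 12.8 and 11.95 against 10.8, 11.2 and 11.8, and Erbb3 (Entrez 13867) read 9.58, 8.16 and 9.08 against 7.88, 8.42 and 6.85. The largest of these 3 differences was 0.22 for Egfr (−0.12 to 0.56). Errfi1 (Entrez 74155) read 62.3, 53.8 and 90.7 FPKM in control and 157, 77.1 and 89.9 after conidia, a difference of 0.61 (−0.11 to 1.32, adjusted p = 0.297). Conidia replicate 1 thus had the highest conidia value of Hbegf, Ereg, Areg, Tgfa, Egfr and Errfi1. The same library had the highest summed level of 12 neutrophil markers of the conidia group (3100 FPKM, against 2222 and 864 in replicates 3 and 2, and 135 to 157 in control). Most of that sum was S100a8 and S100a9. Both, with Cxcr2 and Ngp, were highest in conidia replicate 1, while Csf3r, Mmp8, Mmp9, Retnlg, Camp and Ltf were highest in conidia replicate 3. The part of neutrophil content in the values was not tested.

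The same question was put for hyphal fragments. Errfi1, Egfr, Hbegf and Ereg rose, and Btc and Erbb2 fell. These are 6 of the 9 genes tested (percent of all genes called: 64.9), and 7 after rescaling (59.3). The same 6 were those whose groups did not overlap as deposited (70.7% of all genes). The share of members called is therefore near that of all genes. By direction, 4 were higher (14.9% of all genes) and 2 lower (50.0%). After rescaling 5 were higher, with Areg added (30.0% of all genes), and 2 lower (29.3%). Ereg reached the filter only through the hyphae libraries and conidia replicate 1, so its place among the rises was set in part by the filter.

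Errfi1 showed the largest change of the 9 genes in log2(FPKM + 1), while with 0.1 added in place of 1 Ereg changed more (3.58, against 2.56 for Errfi1). Errfi1 read 279, 467 and 478 FPKM in hyphae replicates 1, 2 and 3, all above the highest of the other 6 libraries (157). Its mean was 5.92 times the control mean, and on the log2 scale it rose by 2.54 with an SE of 0.32 (adjusted p = 0.000217). The rescaled change was 2.97. The change lay between 2.38 and 2.79 when each library was left out, and the call was kept each time. Within libraries, Errfi1 was 38.2 to 62.8 times the level of Egfr in hyphae, 19.9 to 29.4 times after conidia and 14.5 to 25.6 times in control.

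Ligands moved in different directions. Hbegf read 25.9, 41.1 and 55.3 FPKM in hyphae, all above the control libraries, and it rose by 1.04 in log2 units (SE 0.33, adjusted p = 0.0213; 1.45 rescaled). This call was lost as deposited without control replicate 1 (adjusted p = 0.0782), hyphae replicate 2 (0.0603) or hyphae replicate 3 (0.0723), and was kept in all 9 such fits after rescaling. Ereg read 1.30, 1.75 and 4.53 FPKM, which is 27.1 times the control mean by ratio of means, and rose by 1.58 (SE 0.39, adjusted p = 0.00675; 1.78 rescaled). The ratio rests on control values of at most 0.12 FPKM, and on the scale with 1 added it is much smaller.

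Btc, on the other hand, read 1.24, 0.52 and 0.40 FPKM in hyphae, below every control library, and fell by 1.25 on the log2 scale (SE 0.26, adjusted p = 0.00247; −1.02 rescaled). Areg read 8.33, 10.03 and 12.6 FPKM in hyphae, and the groups overlapped as deposited through control replicate 2. Its difference from control was 0.45 (−0.10 to 0.997, adjusted p = 0.129) as deposited and 0.84 (adjusted p = 0.0226) rescaled, where the groups did not overlap. The rescaled call was lost without control replicate 3 (0.073), hyphae replicate 2 (0.06) or hyphae replicate 3 (0.0721). Areg is thus called on 1 of the 2 scales only.

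Tgfa read 6.64, 5.23 and 4.83 FPKM in hyphae, and its difference from control was −0.24 as deposited and 0.13 rescaled, with neither called. Egf (Entrez 13645), the founding ligand of the family, was low in every library. It read 0.49, 0.34 and 0.25 FPKM in control, 0.24, 0.19 and 0.31 after conidia and 0.20, 0.36 and 0.39 after hyphae. The groups overlapped in every comparison, and in a fit without the filter the adjusted p was 0.671 for hyphae against control and 0.437 for conidia against control.

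Ereg, Areg and Btc lie next to one another on mouse chromosome 5, in the order Epgn, Ereg, Areg and Btc, with no other protein-coding gene between them in the RefSeq annotation (GRCm38.p6). In hyphae against control, Ereg was higher and Btc lower within this row of 4. Epgn, epigen, stayed at 0.06 to 0.29 FPKM in all libraries and was not tested.

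The receptors diverged as well. Egfr read 7.31, 7.87 and 7.61 FPKM in hyphae, with little spread and above all 6 other libraries. It rose by 0.97 (SE 0.15, adjusted p = 0.000582; 1.34 rescaled), 2.24 times the control mean. Erbb2 read 7.70, 5.43 and 6.07 FPKM, below all 6 others, and fell by 0.93 (SE 0.13, adjusted p = 0.00029; −0.55 rescaled). Erbb3 read 9.91, 6.69 and 3.03 FPKM, a spread that covers the control range on one side and falls far below it on the other, and its difference of −0.51 (−1.19 to 0.17) was not called. Erbb3 would have been called as deposited without hyphae replicate 1 (−0.83, adjusted p = 0.0158). After rescaling it was called in 0 of 9 fits that each left out 1 library (−0.42 to 0.26).

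A ratio of receptors within a library does not depend on scaling. Egfr over Erbb2 was 0.203 to 0.296 in control, 0.279 to 0.494 in conidia libraries and 0.949 to 1.45 in hyphae libraries. The hyphae range lay above both others. The difference of the log2 ratio from control was 2.21 for hyphae (exact permutation p = 0.1, two-sided, the smallest that 3 against 3 libraries allow) and 0.48 for conidia (exact permutation p = 0.3). In hyphae Egfr lay above and Erbb2 below every control library, so the p for hyphae was fixed in advance and adds no support. Of the summed FPKM of the 3 receptors, Egfr made up 10.9 to 14.99% in control, 14.98 to 22.2% in conidia libraries and 29.3 to 45.5% in hyphae libraries.

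The makeup of the ligands also differed between groups. The 6 ligands together had 31.96 to 42.4 FPKM in control, 33.7 to 56.3 in conidia libraries and 43.7 to 78.0 in hyphae libraries. Hbegf was the largest part in every library, with 40.0 to 61.1% in control, 59.5 to 66.7% after conidia and 59.4 to 70.8% after hyphae. Btc made up 5.41 to 12.9% in control and 0.513 to 2.84% after hyphae, and Ereg 0.167 to 0.375% and 2.97 to 5.81%. The Areg share overlapped between control (13.6 to 24.7%) and hyphae (16.2 to 19.1%) and was lower after conidia (11.3 to 12.5%).

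**Figure D2:**
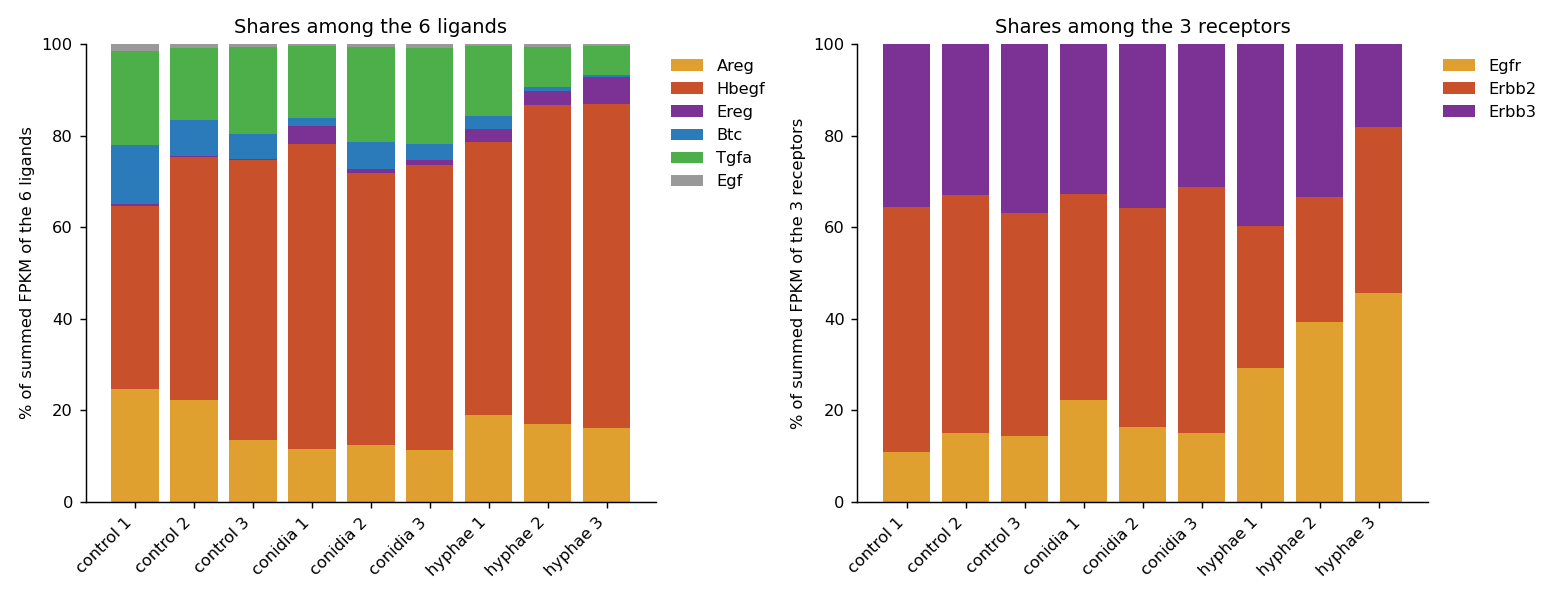
Shares (%) of each gene in the summed FPKM of the 6 ligands (left) and the 3 receptors (right), 1 bar per library. Egfr takes 29.3 to 45.5% of the receptor sum in the hyphae libraries and at most 22.2% in the other libraries, and Btc takes at most 2.84% of the ligand sum in hyphae.

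Hyphae were then compared with conidia directly, which tests the difference between the 2 groups of libraries. The dose of each is not given, so fungal form and dose cannot be told apart. Areg, Egfr and Errfi1 were higher after hyphae, and Tgfa and Erbb2 lower. These are 5 of the 9 genes tested (percent of all genes called: 55.2), and the same 5 had groups that did not overlap (59.9% of all genes). Of them 3 were higher (12.7% of all genes) and 2 lower (42.5%). After rescaling 4 were called (50.8% of all genes), 3 higher (25.4%) and 1 lower (25.4%). All 3 hyphae libraries of Areg lay above all 3 conidia libraries, a log2 difference of 0.93 (SE 0.24, adjusted p = 0.0105; 1.23 rescaled). Areg kept this call without each library in turn, on both scales.

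Errfi1 differed by 1.94 (SE 0.32, adjusted p = 0.00113; 2.27 rescaled) and Egfr by 0.75 (SE 0.15, adjusted p = 0.00292; 1.04 rescaled). Erbb2 was lower by −0.74 (SE 0.13, adjusted p = 0.00127; −0.45 rescaled). Tgfa was lower by −0.45 (SE 0.13, adjusted p = 0.015) as deposited, and this call was lost after rescaling (−0.16, adjusted p = 0.327) and without hyphae replicate 2 (0.0539) or hyphae replicate 3 (0.0524). Hbegf (0.57, −0.18 to 1.31), Ereg (0.88, −0.01 to 1.77), Btc (−0.51, −1.09 to 0.07) and Erbb3 (−0.32, −1.004 to 0.37) were not called. Without hyphae replicate 1 the number of called genes rose as deposited from 5 to 8, with Hbegf, Ereg and Btc added. After rescaling, Hbegf and Ereg were also called without this library, while Btc was called in 0 of the 9 fits that each left out 1 library. Thus Hbegf, Ereg and Btc differed between hyphae and control, but their difference between the 2 fungal groups did not pass with all libraries.

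**Figure D3:**
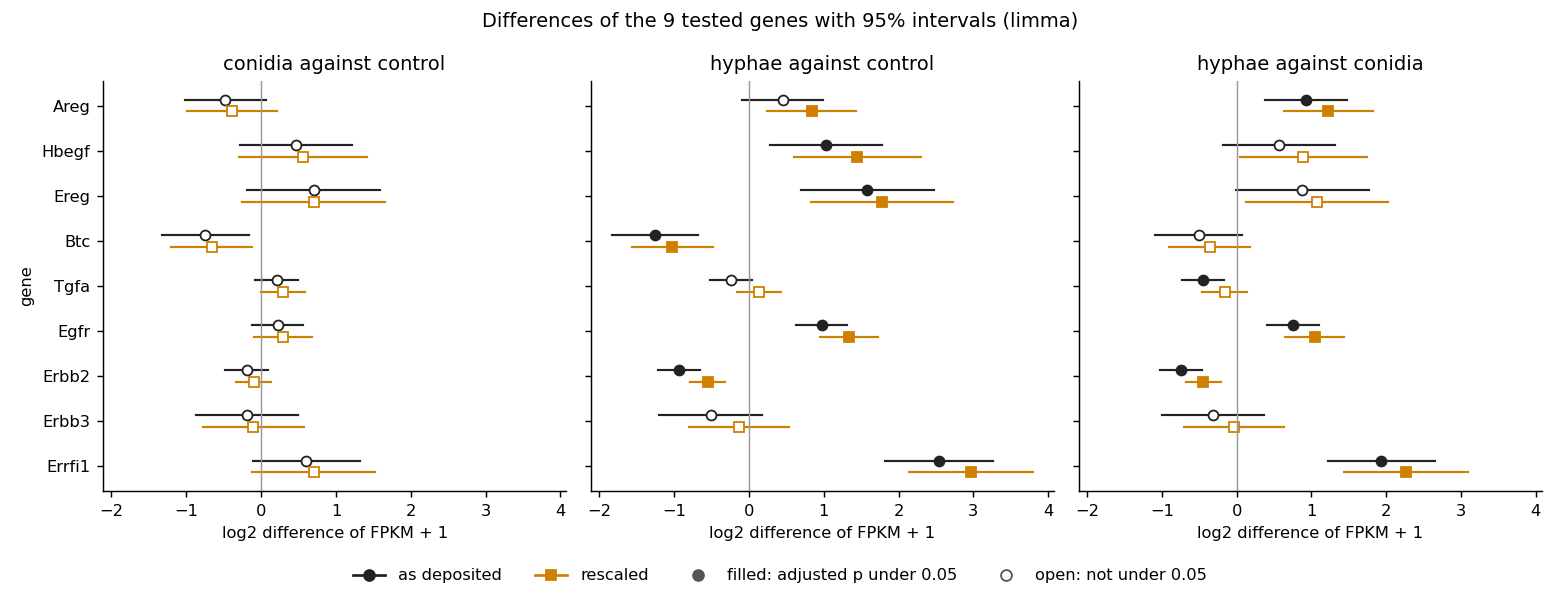
Log2 differences of FPKM + 1 with 95% intervals for the 9 genes tested in the 3 comparisons, as deposited (circles) and rescaled (squares), filled where the adjusted p was under 0.05. No symbol is filled for conidia against control, and Errfi1 stands at 2.54 for hyphae against control.

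For part of the genes, libraries of the hyphae group differed among themselves in parallel with the neutrophil marker sum. This sum was 672, 1916 and 5958 FPKM in replicates 1, 2 and 3. Elane and Mpo, on the same list of 12, were under 1 FPKM in every library. Of the 10 markers tested, Ngp and Camp were higher in hyphae than in conidia and Csf3r was lower (12.7% and 42.5% of all genes). After rescaling 2 were higher and 1 lower (25.4% and 25.4%). Csf3r averaged 27.3 FPKM after hyphae and 99.8 after conidia (−2.002, adjusted p = 0.00224 in limma). In hyphae replicate 1 Csf3r lay below every control library, and Ltf was not called against control in either fungal group. The sum is thus not a like-for-like measure of neutrophils between hyphae and conidia libraries. Hyphae replicate 3 had the highest Hbegf, Ereg, Areg and Errfi1 and the lowest Btc, Tgfa and Erbb3 of its group. Conidia replicate 3 had a neutrophil sum of 2222 FPKM with Hbegf at 23.2 FPKM and Errfi1 at 89.9 FPKM, near the highest control values of 22.5 and 90.7. Egfr was nearly the same in all hyphae libraries as deposited (8.19, 9.78 and 9.30 in replicates 1, 2 and 3 rescaled). Erbb2, at 7.70, 5.43 and 6.07 FPKM, did not follow the order of the sum. The part of neutrophil content in these values was not tested.

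Markers of epithelium in general (8 genes, such as Epcam, Cdh1 and Krt8) summed to 800 to 955 FPKM in control, 858 to 903 after conidia and 939 to 1218 after hyphae, where 4 of 8 were higher and 0 lower against control (14.9% and 50.0% of all genes), and 6 and 0 after rescaling (30.0% and 29.3%). Those of ciliated cells (6 genes) summed to 196 to 322, 127 to 213 and 40.5 to 125, and all 6 were lower in hyphae than in control on both scales (50.0% of all genes as deposited, 29.3% rescaled). Club and goblet markers (7 genes) summed to 68356 to 125024 in control, 46838 to 63961 in conidia libraries and 32020 to 40625 in hyphae libraries. Both fungal groups lay below every control in this sum, most of which was Scgb1a1. Of 6 tested, 0 were higher in either group against control. After conidia 1 was lower on both scales (13 of all 13761 genes as deposited, 6 rescaled). After hyphae 5 were lower as deposited (50.0% of all genes) and 3 rescaled (29.3%). Muc5b read 22.8, 31.4 and 28.5 FPKM after conidia, within the control range of 14.0 to 46.7. Of the general epithelial list, Krt19 (−0.33) and Cldn7 (−0.21) lay below 0 in hyphae against control as deposited and above 0 rescaled, with neither called. Of 7 alveolar type 1 markers 1 was higher and 2 lower there (3 and 1 rescaled). Of 8 alveolar type 2 markers 1 was higher and 3 lower (4 and 2 rescaled). Btc and Erbb2 fell beside the ciliated, club and goblet markers, and Egfr rose beside part of the general epithelial ones. The part of any of these cells in the values was not tested.

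Immune cells known to make Areg in inflamed tissue were followed by their markers. Of 8 markers of type 2 innate lymphoid cells, Il5, Il13 and Klrg1 were under 1 FPKM in every library, and the list summed to 17.6 to 18.2 FPKM in control, 13.5 to 17.2 after conidia and 13.4 to 14.7 after hyphae. Its members moved apart between control and hyphae. Mean Rora went from 5.97 to 10.3 FPKM, while Il7r went from 4.35 to 0.46, Gata3 from 4.44 to 1.93 and Il1rl1 from 1.42 to 0.357, all called. Of 4 tested, 1 was thus higher and 3 lower on both scales (14.9% and 50.0% of all genes as deposited, 30.0% and 29.3% rescaled). Il1rl1 reached the filter only through the control libraries and conidia replicate 2, so its place among the falls was set in part by the filter. Foxp3, the defining factor of regulatory T cells, was under 1 FPKM in every library, and the 5 markers summed to 6.82 to 9.61, 6.29 to 8.94 and 3.34 to 5.92. The 8 markers of mast cells and basophils summed to 67.4 to 88.9 FPKM in control, 97.0 to 113 after conidia and 86.0 to 107 after hyphae. Most of that sum was Gata2, whose mean was 38.5 in control and 83.3 after hyphae, and Kit, at 36.2 and 13.8, both called. Of 4 tested, 1 was higher and 2 lower on both scales, beside the same shares of all genes. Mcpt8, Ms4a2 and Fcer1a were under 1 FPKM throughout. Areg itself stood at 4.20 to 12.6 FPKM over the 9 libraries, and the part of these cells in its level was not tested.

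Other genes of the pathway were taken from 7 lists, of which 85 genes were tested. For conidia 0 of the 85 passed in limma, and 18 (21.2%) had an unadjusted p under 0.05, against 21.1% of all genes. For hyphae against control 58 passed (68.2%, against 64.9% of all genes), and for hyphae against conidia 50 did (58.8%, against 55.2%), so these shares are near those of all genes. In hyphae against control, deposited counts below are read beside 14.9% higher, 50.0% lower and a median of −0.37 over all genes, and rescaled counts beside 30.0% higher, 29.3% lower and a median of 0.00.

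Genes of ligand release moved both ways as deposited. Of 11 genes, 10 were tested, 6 were higher and 4 lower as deposited (median 0.72), and 6 higher and 0 lower after rescaling. Rhbdf2, which carries Adam17 to the cell surface, read 25.0, 25.4 and 19.2 FPKM in control and 68.4, 95.8 and 112 after hyphae, a log2 change of 1.93 (SE 0.20, adjusted p = 0.000104). Rhbdf1 rose by 1.13 and Timp3, an inhibitor of Adam17, by 1.88. Adam17 itself, the protease, had a difference of −0.36 as deposited (adjusted p = 0.0155) and 0.04 rescaled (adjusted p = 0.826), so both iRhom genes rose on both scales while the call for the protease held on 1.

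Of the other ligands and receptors of the family, Nrg1, a neuregulin, rose by 0.80 in hyphae against control (SE 0.12, adjusted p = 0.000573) and Nrg2 fell by 0.79 (SE 0.15, adjusted p = 0.00153). Both also differed between hyphae and conidia, by 0.36 and −0.61. Nrg4 was not called, and Epgn, Nrg3 and Erbb4 did not reach the filter. Erbb4, the remaining receptor, stood at 0.01 to 0.16 FPKM.

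Inhibitors of ERK signalling inside the cell, the Sprouty and Dusp families among them, moved both ways. Of 13 tested, 6 were higher and 2 lower in hyphae against control (median 0.27), and 9 higher and 1 lower after rescaling. Spry4 read 5.91, 9.51 and 7.37 FPKM in control and 26.3, 46.6 and 45.9 after hyphae, a change of 2.22 (SE 0.31, adjusted p = 0.000358). Its conidia libraries read 19.1, 8.62 and 11.8, with replicate 1 highest as for Errfi1. Dusp5, an ERK phosphatase, rose by 1.24, Dusp7, another, fell by 1.27, and Spry1 was higher in hyphae than in conidia by 1.17.

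Genes that act on the receptors themselves did not share a direction. Of 16, 3 were higher and 7 lower in hyphae against control (median −0.41), and 4 higher and 3 lower after rescaling. Cblb, a ubiquitin ligase, read 10.1, 10.1 and 8.28 FPKM in control and 30.92, 32.04 and 32.16 after hyphae, a change of 1.65 (SE 0.10, adjusted p = 2.06e-05). Rnf41 (Nrdp1), a ubiquitin ligase for Erbb3, fell by 1.53, and Socs5 fell by 1.32. All 3 also differed between hyphae and conidia, by 1.42, −1.56 and −1.21.

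Of 15 adaptor genes 3 were higher and 4 lower (10 and 1 rescaled). Of 14 genes listed for RAS, for the RAF, MEK and ERK kinases and for other kinases, 2 were higher and 8 lower (4 and 0 rescaled). In both lists the split thus depended on the scaling. The adaptors Gab2 (1.16), Sos2 (0.89) and Nck1 (−1.27) were called on both scales. So was Mapkapk2 (1.18), a kinase of the second list that is not itself a RAF, MEK or ERK. In hyphae against conidia, Gab2 (0.52), Sos2 (0.81), Nck1 (−1.42) and Mapkapk2 (0.81) were called as well, with Map2k2 (−0.67) and Ksr1 (−1.11), a scaffold of the kinases.

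Early response genes of ERK signalling had the highest median of the 7 lists, 2.01 in hyphae against control. Of 14 tested, 9 were higher and 2 lower, and 10 higher and 2 lower after rescaling. Fosl1, an AP-1 subunit, read 0.18, 0.10 and 0.11 FPKM in control, 3.22, 0.33 and 0.55 after conidia and 8.40, 31.1 and 47.8 after hyphae, a change of 4.44 (SE 0.60, adjusted p = 0.000333). Fosl1, like Ereg, reached the filter only through the hyphae libraries and conidia replicate 1, so its place among the rises was set in part by the filter. As with Errfi1 and Ereg, its level was highest in conidia replicate 1 within the conidia group and lowest in hyphae replicate 1 within the hyphae group. Egr1 rose by 3.29 and Junb by 2.82, and Fos was higher in hyphae than in conidia by 2.38. These genes answer to many signals besides the EGF receptor.

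**Figure D4:**
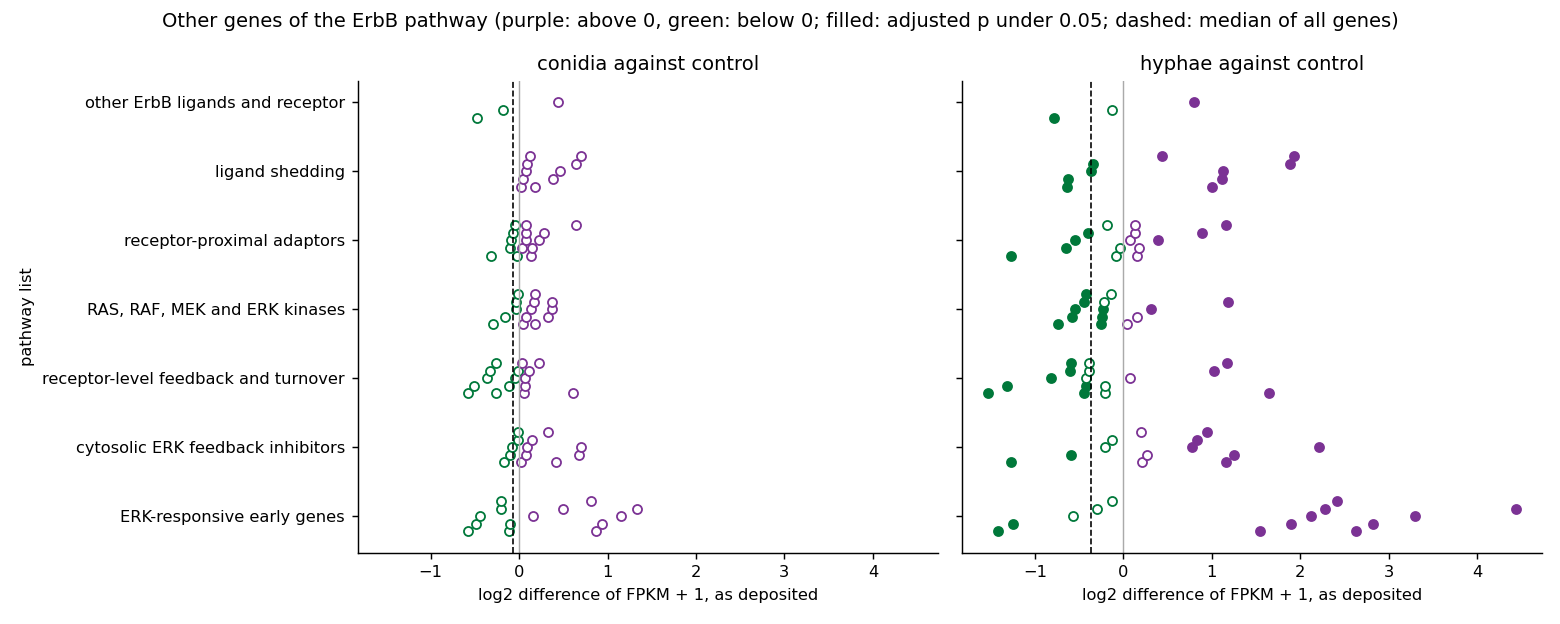
Log2 differences of FPKM + 1, as deposited, for the tested genes of 7 pathway lists (1 point per gene, spread vertically for legibility), for conidia and hyphae against control; purple points lie above 0, green points below, and filled points had an adjusted p under 0.05. No point is filled for conidia, and Fosl1, at 4.44, lies farthest to the right for hyphae, a gene that reached the filter only through the hyphae libraries and conidia replicate 1.

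The genes whose profile over the 9 libraries came closest to that of a member were found by the root mean square difference of log2(FPKM + 1), each gene centred on its own mean. For Errfi1 they were Txnrd1 (0.19), Bhlhe40 (0.19) and Trib1 (0.23), the same 3 after rescaling. For Egfr they were Llgl2 (0.09), Mcam (0.09) and Hivep1 (0.10). Areg had Hlx (0.19), Nrp (Entrez 654309, 0.22) and Cks2 (0.23), and Hbegf had Rab8b, Adgrg3 and Slc13a3 (each 0.18). For the other 3 members rescaling replaced 1 of the 3 genes: Hivep1 gave way to Klf3 for Egfr, Nrp to Ovol1 for Areg and Slc13a3 to Jak2 for Hbegf. Hlx, a homeobox factor, averaged 22.8 FPKM in control, 16.2 after conidia and 36.0 after hyphae, the same order of groups as Areg at 7.42, 4.97 and 10.3. All genes share the 9 libraries and their scaling, and this likeness is a description only.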

How the data were processed

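Whole-lung poly(A) RNA was measured in 9 libraries, 3 per group, and the groups were taken from the sample titles. The authors deposited FPKM values (fragments per transcript length and library total), per the file headers, in 1 file per library with 18984 genes. Per the submitters' processing notes, HISAT and Bowtie2 were used with build mm9. What computed the FPKM is not stated there. The files hold no counts. A comparison of low values put the relative depth of the libraries at 0.99 to 1.01, but it used only ratios within 1.2-fold, which pulls it towards 1. Depth is therefore treated as unknown, and no counting interval is given for a single value.

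Values were taken as log2(FPKM + 1), and the 13761 genes that reached 1 FPKM in 3 or more libraries were tested. A limma-trend model (limma 3.58.1, R 4.3.3, jsonlite 2.0.0) with robust empirical Bayes held all 9 libraries, with no covariate. Tests were two-sided, adjusted by Benjamini and Hochberg over all genes tested, and called at an adjusted p under 0.05. The added 1 understates changes of low genes. The script was tested on simulated data. "Rescaled" values were divided by median-of-ratios factors. Other alternatives were the pseudocount, the filter, the groups in the fit, a replicate block and leaving out each library. All 10 genes, 7 pathway lists and 16 marker lists were chosen with earlier results of these data known. From each pathway list, up to 3 genes per comparison were named, those with the largest difference among genes called both as deposited and rescaled. A gene that this rule would name is not reported here. For Areg, Hbegf, Errfi1 and Egfr the 3 genes with the nearest profile were named. Markers are given as sums, with those under 1 FPKM in every library. Rora, Il7r, Gata3, Il1rl1, Gata2, Kit, Scgb1a1, Muc5b, Krt19, Cldn7 and the single neutrophil markers were named after their values were seen. Promoters are RefSeq sequences of build GRCm38.p6, used for letters only.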

Additional observations from a re-analysis of the deposited data

How the results depend on the processing

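For conidia against control 95 genes were called, 47 after rescaling, 43 with no filter and 57 with the replicate block, and 0 to 1503 without each library in turn (limma gave 0 calls when any 1 of the 3 control libraries was left out, with 1982, 1971 and 2601 genes at an unadjusted p under 0.05, and when conidia replicate 3 was, with 1862; leaving out conidia replicate 1 or 2 gave 1 or 1503 calls, and hyphae replicate 1 or 2 gave 260 or 7). The 10 genes of the report gave 0 calls there in every setting. For hyphae against conidia they gave 5, and 4 to 8 without each library in turn (8 without hyphae replicate 1), and for hyphae against control 6, and 5 to 8. With the replicate block the members' counts stayed at 0, 6 and 5 for the 3 comparisons, and it changed no call of a member. The numbers did not pair the libraries: 2 of 9 same-numbered pairs had deviations correlated above 0.1, and 2 of 9 libraries were closest to a library with their own number. Direction reversed for Tgfa in hyphae against control after rescaling (0.13; with a library left out as well, 0.104, 0.135 and 0.156 without control replicates 1, 2 and 3, 0.132, 0.131 and 0.132 without conidia replicates 1, 2 and 3, and 0.0594, 0.145 and 0.205 without hyphae replicates 1, 2 and 3), and for Erbb3 without hyphae replicate 3 in hyphae against conidia (0.0756 as deposited, against −0.64 without hyphae replicate 1; 0.362 rescaled), in hyphae against control (0.26 rescaled), and without conidia replicate 1 (0.0221 rescaled); the cause was not tested. Leaving out libraries after rescaling was added after seeing the data. Depth is not recorded, and Egf and control Ereg, under 1 FPKM, are the least precise.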
